A study of Mus musculus with 2 samples.

Results

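The dissociated salivary glands of the NOD/ShiLtJ and CD1 mice still held a small number of duct epithelial barcodes after epithelial cells had been depleted, and 74 of the 10591 barcodes that passed the filter met the rule for them. A barcode was taken as a kallikrein-rich duct barcode when it held at least 2 UMIs of Krt18, Krt8, Krt7 and Epcam together, at least 3 UMIs of the 6 kallikreins Klk1, Klk1b5, Klk1b9, Klk1b11, Klk1b22 and Klk1b26 together, and no UMI of Ptprc (CD45) or Pecam1 (CD31). A UMI, or unique molecular identifier, marks 1 captured RNA molecule. These genes chose the members, which were selected on their UMIs alone. A barcode passed the filter with 500 or more UMIs over 300 or more genes and no more than 10% of UMIs in mitochondrial rows. There were 16 members among 4917 filtered barcodes in NOD and 58 among 5674 in CD1. Their share was 0.325% in NOD (95% Clopper-Pearson interval 0.186 to 0.528) and 1.02% in CD1 (0.777 to 1.32). The filtered barcodes were made up unlike, since 2223 in NOD and 207 in CD1 were of the T-cell class (by Cd3 genes). A share also depends on these other barcodes, and the difference was not tested.

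The NOD/ShiLtJ mouse is an inbred strain used as a model of Sjögren's disease, and CD1 is an outbred strain that served as the control. Both groups were untreated females aged 20 weeks. Submandibular and adjoining sublingual glands were pooled into 1 library per strain, and the labels give 3 mice per library, a number on which the sources differ. Cells bearing EpCAM or Ter119 were removed with magnetic beads and dead cells were removed afterwards. The members are therefore read as residual cells, and whether each barcode is a whole cell was not tested. Their shares do not give the share of ducts in the gland. The libraries held 52790319 UMIs in NOD and 56483149 in CD1. With 1 library per strain there was no replicate, and strain, batch and library cannot be told apart. No test between strains was run, and every interval covers counting error only. Of the filtered barcodes, 6 had a sequence found among the filtered barcodes of both libraries, and 0 of these were members.

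The granular convoluted tubules and striated ducts of the rodent submandibular gland lie between the acini and the excretory ducts. The granular tubule cells secrete tissue kallikreins, growth factors and, in the mouse, renin, under the control of androgens and thyroid hormone. Striated duct cells take sodium and chloride out of the primary saliva with ion pumps and channels, and they are packed with mitochondria.

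The 5 kallikreins of the rule that belong to the Klk1b group lie in 1 cluster on chromosome 7. All 5 were held by 9 of 16 NOD and 26 of 58 CD1 members, and none of them by 0 and 2. To show how far they are alike, the stretch of 60 bases just before each gene's start is given here. Over the 10 pairs, the whole stretches were from 34.4% to 90.3% identical. Letters that they share lie at unlike distances from the start, so the low values include a shift in position. The shared letters alone were not scored. The sequences are the plus strand, from the 300-base promoter windows of RefSeq on GRCm38.p6, which is the reference strain and neither of the strains studied. Capitals mark TTTAAA, an AT-rich motif of the kind found near transcription starts. Klk1b5 is at chr7:44216414-44216473, Klk1b9 at chr7:43976001-43976060, Klk1b11 at chr7:43995817-43995876, Klk1b22 at chr7:44112613-44112672 and Klk1b26 at chr7:44012618-44012677.
Klk1b5: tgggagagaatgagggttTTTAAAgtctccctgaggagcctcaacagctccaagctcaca
Klk1b9: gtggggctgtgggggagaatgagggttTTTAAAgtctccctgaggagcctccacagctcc
Klk1b11: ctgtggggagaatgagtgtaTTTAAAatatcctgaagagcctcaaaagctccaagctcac
Klk1b22: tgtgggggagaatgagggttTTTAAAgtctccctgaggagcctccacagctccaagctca
Klk1b26: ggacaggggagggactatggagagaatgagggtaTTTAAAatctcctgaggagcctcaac
The motif reads the same on both strands and began between 26 and 42 bases before the start. It is not rare, since 4324 of 32851 RefSeq windows of 300 bases held it (13.2%), and a match is a description of the letters alone. Near-identical kallikreins could share reads. Among 14 Klk1-family genes, only Klk1b21 and Klk1b24 shared any stretch of 90 bases in the last 400 bases of their reference transcripts, and the closest pair of each gene was between 86.5% and 94.5% identical.

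Of the duct markers that the rule did not use, Fxyd2 and Crisp3 were present in most members, while other ion transport genes were sparse. Fxyd2, the gamma subunit of the sodium pump, was present in 15 of 16 NOD members and 57 of 58 CD1 members. Its level was 12627 CPM (UMIs per 1000000 UMIs summed over the members, 95% Poisson interval 11319 to 14045) in NOD and 14399 CPM (13812 to 15005) in CD1. The free RNA was measured in barcodes of 10 to 100 UMIs, which hold too few molecules for a cell, and there Fxyd2 stood at 39.6 CPM in NOD and 491 CPM in CD1. Among barcodes of the T-cell class, which should lack the gene, 0.765% in NOD and 3.86% in CD1 held a Fxyd2 UMI. With every barcode thinned to 500 UMIs the shares were 86.5% of NOD members against 0.0581% of T-cell barcodes, and 97.4% of CD1 members against 0.261%. Crisp3, a cysteine-rich protein secreted into saliva, was present in 11 of 16 and 53 of 58 members.

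Of the genes that chose the members, and so only as a description, Klk1 stood at 16873 CPM (15355 to 18501) in NOD and 21513 CPM (20794 to 22251) in CD1, and it was present in 15 of 16 and 58 of 58 members. Krt18 and Krt8, the paired keratins of simple epithelium, were at 857 and 335 CPM in NOD and 943 and 395 CPM in CD1. Krt7, another duct keratin, was at 298 and 535 CPM. Epcam, the antigen used for depletion, was sparse, with a UMI in 3 of 16 and 13 of 58 members. The level of Epcam was 112 CPM in NOD and 134 CPM in CD1, against 13.9 and 15.4 CPM in free RNA.

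Members were small for barcodes of these libraries. Their median was 1217 UMIs in NOD (range 627 to 5858) and 1723.5 UMIs in CD1 (506 to 13501), while the other filtered barcodes had medians of 6774 and 7591.5 UMIs. A barcode of the median member size filled with free RNA would hold 0.210 UMIs of the 6 kallikreins in NOD and 3.19 in CD1. The members held a median of 115.5 and 53, and 16 of 16 and 57 of 58 lay above the free RNA level for their own size, which is a description, since the rule chose them on these genes. The markers of T and B cells in the members stood at 7.88% of their free RNA level in NOD (6 UMIs) and 6.88% in CD1 (2 UMIs). The rule kept only barcodes without Ptprc, so these low values are in part set by it.

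At the thresholds, 11 NOD and 15 CD1 members held exactly 2 keratin and Epcam UMIs. Just outside, 8 NOD and 29 CD1 barcodes held 1 such UMI and at least 3 of the kallikreins, and the median kallikrein share of those barcodes was 6.97% and 1.76% of UMIs. Only 2 NOD and 3 CD1 members held 3 to 6 kallikrein UMIs, and 0 NOD and 5 CD1 barcodes with enough keratin fell short with 1 or 2. The limit on Ptprc and Pecam1 removed 6 NOD and 43 CD1 barcodes with median sizes of 11621 and 13786 UMIs, in which the kallikreins were 0.0808% and 0.0904% of UMIs.

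In each strain the members spanned a wide range of kallikrein content, and in NOD the ends of that range held different kallikreins and secreted proteins. The 6 kallikreins of the rule made up between 0.231% and 21.7% of a NOD member's UMIs (median 9.77%) and between 0.0444% and 23.3% of a CD1 member's (median 2.96%). In NOD, 7 members lay under 2%, 0 from 2% to 5%, 1 from 5% to 10% and 8 at 10% or above. In CD1, 13 members lay under 2%, 32 from 2% to 5%, 11 from 5% to 10% and 2 at 10% or above. Thus the NOD members fell mostly at the ends of the range and the CD1 members mostly in its middle. This is a description, since the rule chose the members on these kallikreins. The 2 lowest NOD members, at 0.231% and 0.375%, held macrophage markers.

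The 7 NOD members under 2% included the 2 that held macrophage markers. Klk1 gave 69.0% of the summed Klk1-family UMIs of the 7, and from 33.3% to 89.5% in single members. Without the 1 member that held 68 of their 118 Klk1 UMIs it gave 69.4%. Together the 7 members held 277 UMIs of Fxyd2 (17013 CPM) and 9 of Crisp3 (553 CPM), with 0 UMIs of Ren1 and Egf. In 1 of them lay 157 of the Fxyd2 UMIs, and without it the level was 11512 CPM. The 8 NOD members at 10% or above held mostly the Klk1b kallikreins, with Klk1 at 16.2% of the family, or 5.22% without the 1 member that held 208 of their 288 Klk1 UMIs. They carried 49 UMIs of Fxyd2 (5691 CPM), 283 of Crisp3 (32869 CPM), 105 of Ren1 (renin, the protease that cleaves angiotensinogen) and 22 of Egf (epidermal growth factor). Across the NOD barcodes, the Crisp3 share of UMIs followed the kallikrein share with a Spearman correlation of 0.83 (n = 16) and that of Fxyd2 went the other way at -0.30, or -0.61 without the 2 NOD members that held macrophage markers (n = 14). Across the CD1 barcodes the values were 0.61 and -0.08 (n = 58). The Klk1 share of the family went against the kallikrein share at -0.59 in NOD and -0.26 in CD1. In CD1, Crisp3 stood at 1214 CPM in members under 2% and at 23390 CPM in those at 5% or above. The 2 CD1 members at 10% or above were unlike. At 19.1%, 1 of them held 6 Klk1 UMIs among 916 of the family, with 398 UMIs of Crisp3 and 34 of Egf. The CD1 member richest in kallikreins (23.3%) held mostly Klk1, at 468 of its 479 Klk1-family UMIs, with 2 UMIs of Crisp3 and 0 of Ren1 and Egf. In 1 of the 8 NOD members at 10% or above Klk1 also dominated, at 208 of 250 UMIs, with 12 UMIs of Crisp3 and 0 of Ren1 and Egf. These barcodes share a library and the shares have a common denominator, so the correlations are a description.

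**Figure D1:**
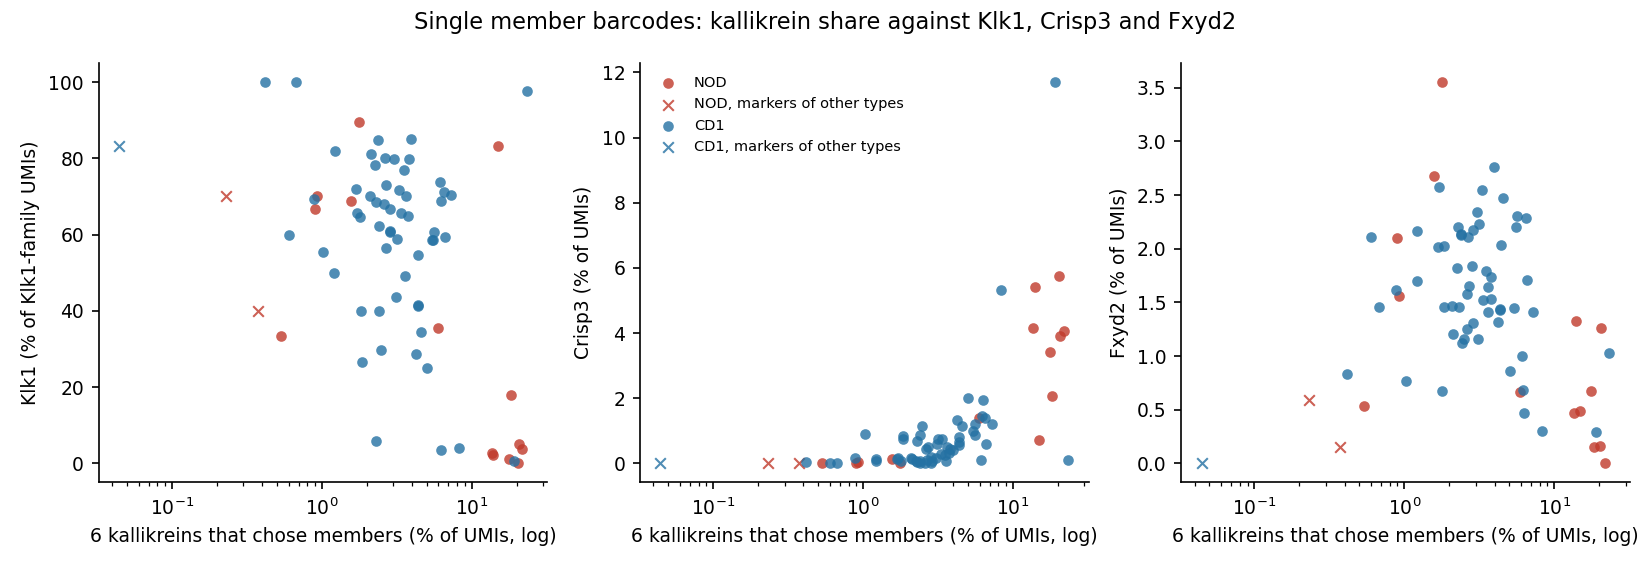
Each point is 1 member barcode, with the share of its UMIs in the 6 kallikreins on the log x axis and, on the y axes, the share of Klk1 among its Klk1-family UMIs, its Crisp3 share and its Fxyd2 share, all in percent. Crosses mark the 3 members with markers of another cell type. The NOD members (red) leave the range from 2% to 5% empty, where 32 of 58 CD1 members (blue) lie, and Crisp3 tends to be higher at the right, though not in the CD1 member at 23.3%.

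Within the Klk1 family, Klk1 and Klk1b26 had unlike shares in the members of the 2 strains, and since both are genes of the rule the values are a description. Klk1, true tissue kallikrein, gave 21.7% of the family's UMIs in NOD members and 47.8% in CD1 members. Klk1b26 gave 29.5% and 11.6%. In NOD 208 of the 453 Klk1 UMIs lay in 1 barcode, and without it Klk1 gave 13.4%. The log2 ratio of Klk1 between the strains was -0.35 with all members and moved between -1.11 (at least 1000 UMIs and 500 genes) and 0.086 (no limit on Ptprc and Pecam1) over 14 alternatives. It was -0.95 without the barcodes with the highest doublet scores, -0.096 (-0.24 to 0.049) with at least 10 kallikrein UMIs and -0.0078 (-0.16 to 0.14) with kallikreins at 1% of UMIs or more. Klk1b9 gave 13.3% and 10.4% and Klk1b11 8.73% and 8.81%, while Klk1b8 gave 1.82% (1.29 to 2.49) and 0.594% (0.429 to 0.802). In free RNA, which all ducts of the gland could feed, Klk1 gave 40.7% in NOD and 47.3% in CD1, so the gap between the strains was smaller there. Klk1 gave at least 50% of the family in 6 of 16 NOD and 43 of 58 CD1 members.

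**Figure D2:**
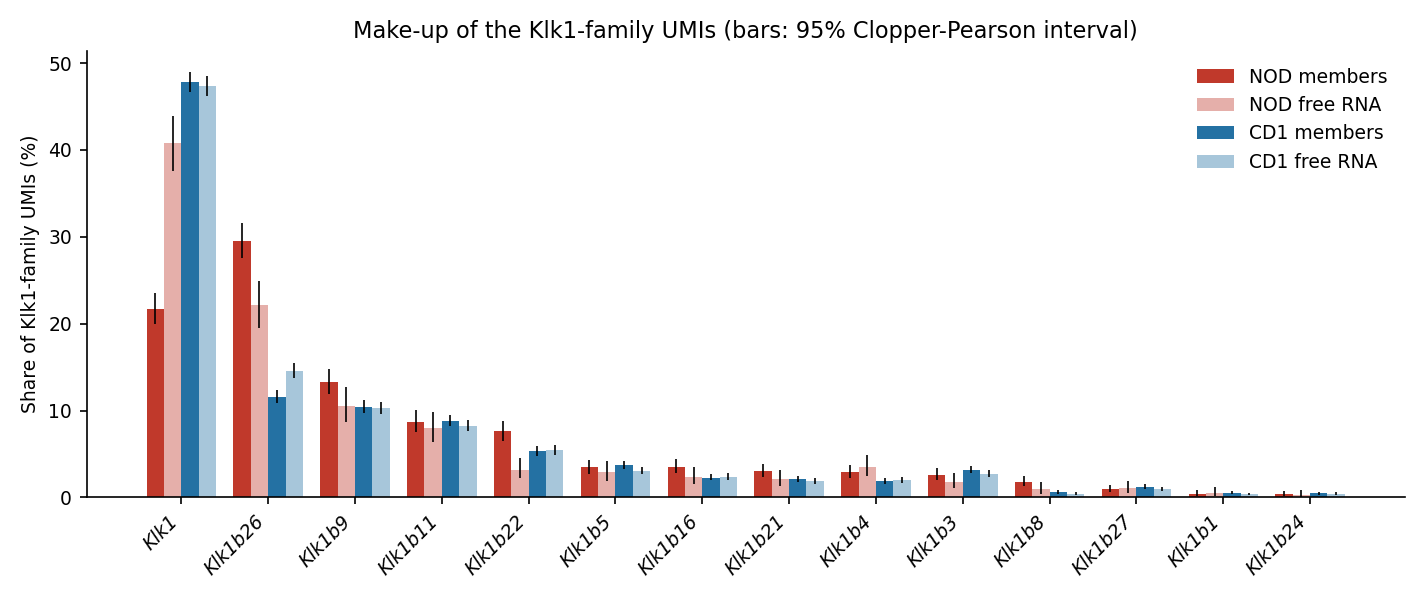
Bars give the share of each gene among the UMIs of the 14 Klk1-family genes (percent), for members (dark) and free RNA (light) of each strain, with 95% Clopper-Pearson intervals as lines. In NOD members Klk1b26 (29.5%) exceeds Klk1 (21.7%), while in CD1 members and in the free RNA of both strains Klk1 has the largest share.

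The kallikreins that the rule did not use were also abundant. Of 15 such genes, the 8 of the Klk1b group had enough UMIs to be compared (at least 20 over both libraries), and Klk6, Klk7, Klk8, Klk10, Klk11, Klk13 and Klk14, which belong to other branches of the family, had 0 UMIs. The list stood at 12143 CPM in NOD members (10860 to 13535) and 5528 CPM in CD1 members (5166 to 5908), against 60.8 and 239 CPM in free RNA. All 8 were at least 2-fold higher in members than in free RNA in both libraries, where 46.8% of the 1377 comparable genes passed that fold in NOD and 64.5% in CD1. The same 8 genes also passed it over the other filtered barcodes, where the shares of all genes were 50.5% and 61.9%. These genes belong to the same family as those of the rule, so the counts are not independent of it. The 20 UMIs were also counted in the members only, so genes high in members were more readily compared. That holds for the shares of all genes and for every such count below, which are therefore a description.

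Renin was the secreted protein that differed most between the strains. Ren1 was present in 8 of 16 NOD members (106 UMIs, 3948 CPM, 3233 to 4775) and in 1 of 58 CD1 members (9 UMIs, 57.3 CPM, 26.2 to 109). Free RNA held 7.55 CPM in NOD and 9.79 CPM in CD1. Scaled to the Klk1b kallikreins, NOD members held 6.50 Ren1 UMIs per 100 Klk1b UMIs (5.29 to 7.91) and NOD free RNA 6.46 (4.50 to 9.01). In CD1 the same ratio was 0.24 (0.11 to 0.46) in members and 0.89 (0.61 to 1.26) in free RNA. The Klk1b UMIs include those of the rule, so these ratios are a description. The 2 NOD members with at least 4 keratin and Epcam UMIs held 0 UMIs of Ren1. Some mouse strains carry an additional renin gene nearly identical to Ren1, and reads of the copies cannot be told apart here.

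The members with Klk1 below 10% of the family can be set side by side, though the groups are unlike, with kallikreins at 13.6% to 21.7% of UMIs in NOD and 2.30% to 19.1% in CD1. In the 6 NOD members of this kind Ren1 was present in each, with 2 to 28 UMIs, and stood at 16832 CPM (13618 to 20576). In the 4 CD1 members it was present in 1 and stood at 568 CPM (260 to 1079). Crisp3 stood at 43232 CPM in NOD and 41811 CPM in CD1, but 398 of the 662 CD1 UMIs lay in 1 barcode, without which the level was 21236 CPM. Fxyd2 stood at 6910 and 5305 CPM.

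Egf, a growth factor of the granular tubule, stood at 819 CPM in NOD and 248 CPM in CD1, with a UMI in 7 of 16 and 6 of 58 members, and 34 of the 39 CD1 UMIs lay in 1 barcode. Crisp3 stood at 11882 CPM in NOD and 8534 CPM in CD1, against 33.9 and 361 CPM in free RNA. Crisp1 and Tgfa had 0 UMIs in both. Of the 4 secreted proteins that could be compared, 2 (Ren1 and Egf) were at least 2-fold higher in NOD members and 0 were lower. Of 1377 genes, 5.81% were higher and 21.1% lower. CD1 members held most of the UMIs that let a gene be compared, so genes high in CD1 passed more readily. The list as a whole was higher in NOD by 0.91 on the log2 scale.

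Among the ion transport genes, Fxyd2 gave nearly all of the signal. The list of 16 genes stood at 12962 CPM in NOD members and 15234 CPM in CD1 members, of which Fxyd2 gave 12627 and 14399 CPM. Over free RNA the list was higher by 5.50 on the log2 scale in NOD (5.32 to 5.67) and by 4.39 in CD1 (4.31 to 4.47). Single genes followed less, since 2 of 4 comparable genes in NOD and 3 of 4 in CD1 were at least 2-fold higher than free RNA, beside 46.8% and 64.5% of all genes, with medians of 0.89 and 2.97. In NOD 1 gene, Car2, was called at least 2-fold lower than free RNA, but on 0 UMIs, which leave its level open. Of all 156 genes called lower there, 68 had 0 UMIs. With 3 UMIs in the place of 0, 89 calls were left. Atp1b1, the beta subunit of the sodium pump, stood at 149 CPM in NOD and at 344 CPM in CD1. Car2, a carbonic anhydrase, had 0 UMIs in NOD members, which allows up to 112 CPM, and 23 UMIs in 12 of 58 CD1 members (146 CPM).

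The sodium channel that takes up sodium in striated ducts was barely detectable at this depth. Scnn1a, Scnn1b and Scnn1g, its subunits, had 1, 0 and 0 UMIs in NOD members and 2, 3 and 2 UMIs in CD1 members. Cftr, the chloride channel of cystic fibrosis, had 0 and 2 UMIs. Slc9a3, Slc26a6, Bsnd and Atp6v1b1 had 0 UMIs in both. Of the 4 transport genes that could be compared, 0 were at least 2-fold higher in NOD and 3 in CD1, beside 5.81% and 21.1% of all genes. Atp1b1 and Car2 were among the 3, but the 0 UMIs of Car2 in NOD also allow a difference of less than 2-fold.

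With the genes of the rule left out, genes outside the kallikreins led the list of those highest in members over free RNA. The ranking used the smaller of the lower interval bounds of the 2 libraries and left out the genes of the rule. The values are log2 ratios. Fxyd2 came first, at 8.32 in NOD and 4.87 in CD1. Atp6v0d2, a subunit of the proton pump of acid compartments, followed at 6.70 and 5.11, though on 4 and 61 UMIs. Crisp3 came next at 8.45 and 4.56. Tesc, a calcium-binding regulator of sodium-proton exchange, was at 5.17 and 4.68. S100a1, a calcium-binding protein, was at 7.24 and 4.48 and was present in 15 of 16 and 54 of 58 members. Ckmt1, the mitochondrial creatine kinase, was at 9.83 and 4.58, with 559 CPM in NOD and 809 CPM in CD1. The ratios of these genes were higher in NOD, where the free RNA held less of each, as with Ckmt1 at 0.612 CPM in NOD and 33.8 CPM in CD1. The other genes of the 15 were Ap1m2, Inpp5j, Fndc5, Urah and 5 Klk1b kallikreins outside the rule. Genes of the rule, among them Klk1 (7.71 and 4.45), Klk1b9 (8.95 and 4.46), Klk1b5 and Klk1b11, would otherwise have come among the 15. The list therefore understates the part of the kallikreins. The ranking over the other filtered barcodes also left out the genes of the rule. Scgb1c1, a small secretoglobin (9.84 and 8.19), and Spmip3 (9.29 and 7.83) came among its 15 highest. So did Stxbp5l (10.03 and 7.74), on 5 and 30 UMIs.

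General epithelial genes were present at a lower level. The list of 25 stood at 1117 CPM in NOD (754 to 1595) and 1312 CPM in CD1 (1139 to 1504), against 106 and 171 CPM in free RNA. The 4 with enough UMIs were at least 2-fold higher than free RNA in both libraries, beside 46.8% and 64.5% of all genes. Their UMIs in the members let them into the comparison, so this count is a description. They were Ehf, an epithelial ETS factor (112 and 318 CPM), Wfdc2, a secreted protease inhibitor (372 and 236 CPM), Rab25, a Rab GTPase of epithelial recycling (112 and 178 CPM), and Ap1m2, an epithelial adaptor of basolateral sorting (112 and 108 CPM). Foxi1, the factor of ionocytes, had 0 UMIs. Ascl3, a factor of rare duct cells, had 0 UMIs in NOD and 9 UMIs in 3 CD1 members.

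Acinar genes were measured to see how much secretory RNA of the neighbouring cell type the members held. The list of 17 genes in the files stood at 1527 CPM in NOD members and 949 CPM in CD1 members, against 762 and 13786 CPM in free RNA. Its most abundant gene, Mucl2, stood at 1415 CPM in NOD members, with 38 UMIs in 5 of 16, and at 516 CPM in CD1 members, with 81 UMIs in 28 of 58. In free RNA Mucl2 stood at 598 CPM in NOD and 9967 CPM in CD1. Aqp5, the acinar water channel, Smr3a, Bpifa2, Lpo, Smgc and Muc19 had 0 UMIs in the members of both strains. CD1 members therefore lay far below their free RNA for acinar genes. In NOD 31 of the 41 acinar UMIs lay in 1 member, and without it the list stood at 394 CPM, below free RNA.

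**Figure D3:**
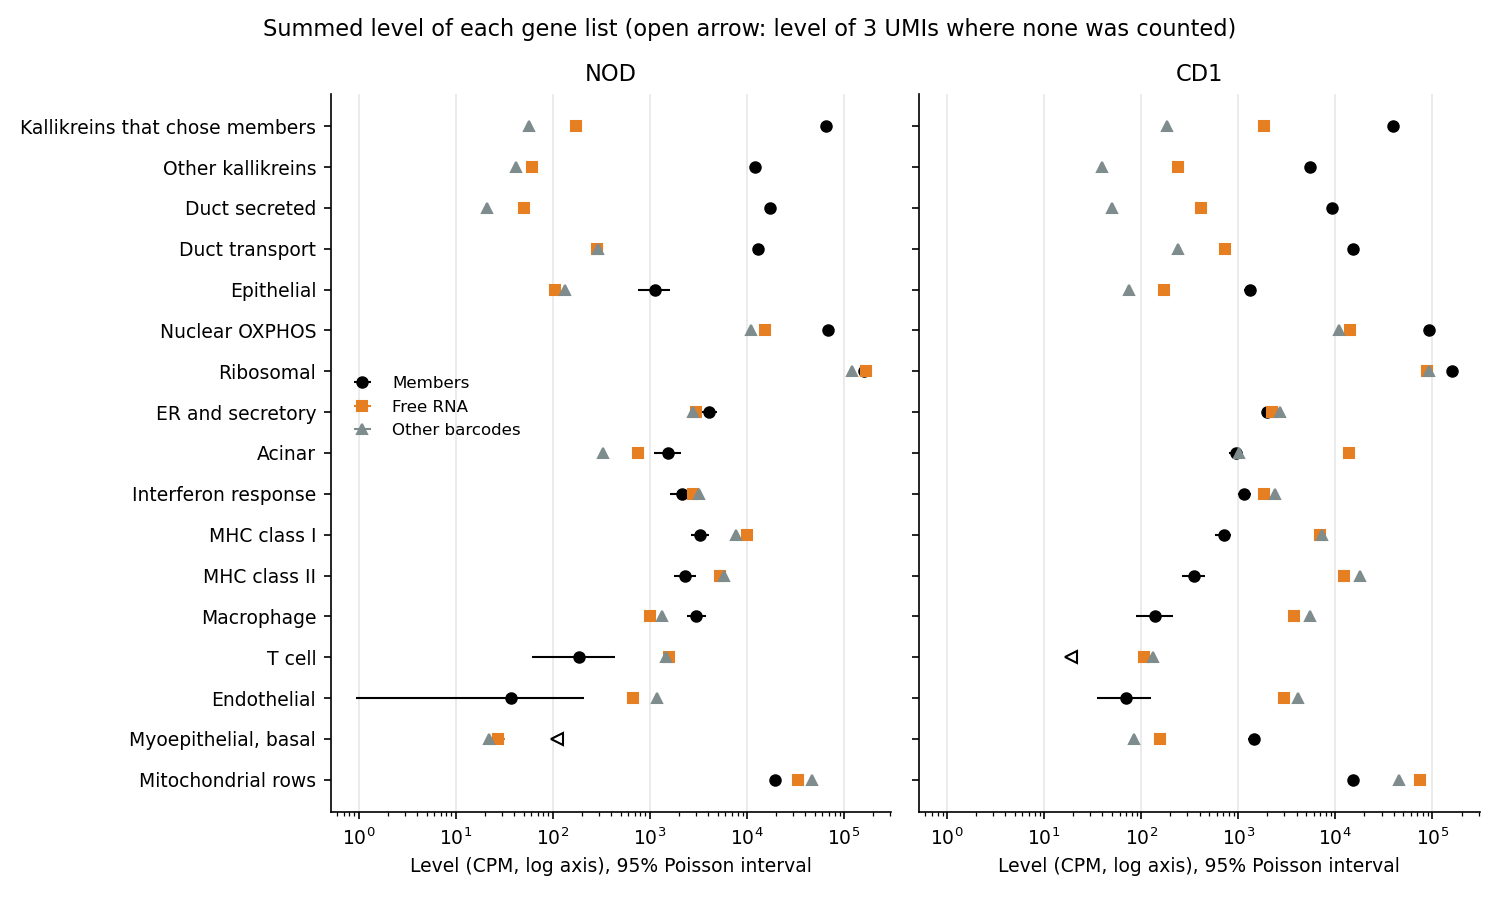
Points give the summed level of each gene list in CPM (log x axis) with 95% Poisson intervals, for members (circles), free RNA (squares) and the other filtered barcodes (triangles), with NOD on the left and CD1 on the right. Open arrows stand at the level of 3 UMIs where no UMI was counted. Members stand above both comparisons for the duct lists and nuclear OXPHOS, and below both for mitochondrial rows.

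The members were rich in the RNA of nuclear-encoded respiratory chain genes and poor in RNA made in the mitochondrion or kept in the nucleus. Nuclear genes of oxidative phosphorylation (OXPHOS, the subunits of complexes I, III, IV and V by name) made up a median of 5.14% of UMIs in NOD members and 10.1% in CD1 members, against 1.02% and 1.08% in the other filtered barcodes. The summed level was 68984 CPM in NOD and 92440 CPM in CD1. That was higher than free RNA by 2.16 and 2.70 on the log2 scale. At least 2-fold higher were 71 of 78 and 78 of 78 comparable genes, beside 46.8% and 64.5% of all genes. The comparable genes were those with enough UMIs in the members.

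Mitochondrial rows, by contrast, made up a median of 0.375% of UMIs in NOD members and 0.204% in CD1 members, against 4.76% and 4.46% in the other barcodes. They lay below 1% in 13 of 16 and 41 of 58 members. Malat1, a long RNA kept in the nucleus, had 0 UMIs in 6 of 16 NOD and 25 of 58 CD1 members and at most 3 UMIs in 15 and 53. Its level was 708 CPM in NOD members and 2019 CPM in CD1 members, 248 of whose 317 UMIs lay in 1 barcode, against 17794 and 18238 CPM in the other barcodes.

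Both values were also compared within a range of size. Among barcodes of 500 to 5000 UMIs, where members were still smaller (medians of 1120.0 and 1598.5 UMIs against 3386 and 2052), mitochondrial rows below 1% together with Malat1 below 0.1% were found in 8 of 15 NOD members (53.3%) and 31 of 52 CD1 members (59.6%). They were found in 53 of 1343 other barcodes in NOD (3.95%) and 91 of 1494 in CD1 (6.09%). The rule kept only barcodes of at most 10% mitochondrial UMIs, and 1 NOD and 14 CD1 barcodes met all other parts of it above that limit. Over members of every size the counts were 8 of 16 in NOD and 35 of 58 in CD1. Whether such barcodes are whole cells was not tested.

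**Figure D4:**
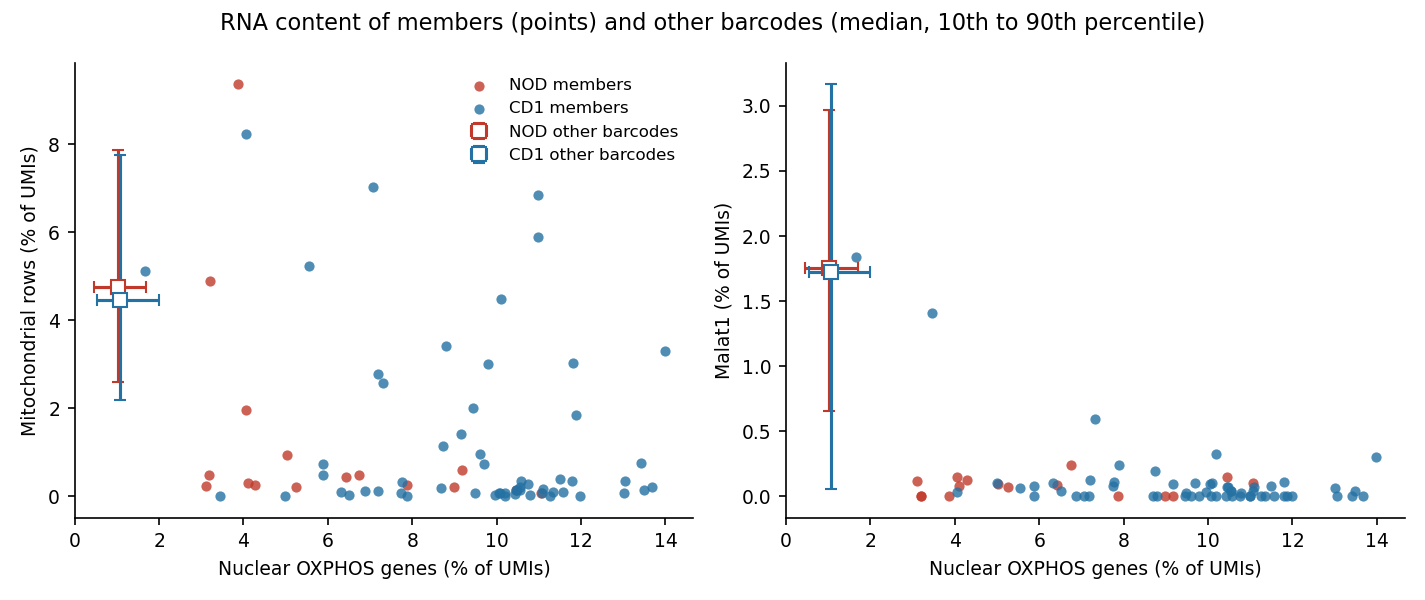
Each point is 1 member barcode, with the share of UMIs in nuclear OXPHOS genes on the x axis and in mitochondrial rows (left) or Malat1 (right) on the y axis, all in percent. Squares with bars give the median and the range from the 10th to the 90th percentile of the other filtered barcodes. Most members lie to the right of and below the other barcodes, and 41 of 58 CD1 members are below 1% in mitochondrial rows.

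Ribosomal protein genes showed less contrast. They stood at 159012 CPM in NOD members and 160507 CPM in CD1 members, against 167960 and 87152 CPM in free RNA. The predicted non-coding gene Gm26917 had more UMIs than any other gene in the members, at 89023 CPM in NOD and 54598 CPM in CD1. It was also abundant in free RNA, at 124250.0 and 112171 CPM, and in the other barcodes, at 40890.1 and 40817 CPM. Tpt1 and Rplp1, which serve translation in most cells, were also abundant, at 5624 and 6928 CPM in NOD and 6872 and 6152 CPM in CD1.

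Markers of other cell types were near 0 in most members, but 3 barcodes held at least 10 UMIs from such a list. In NOD, 1 member of 3900 UMIs held 67 UMIs of the 7 macrophage genes and 1 of 1333 UMIs held 13. In CD1, 1 member of 13501 UMIs held 225 UMIs of myoepithelial and basal genes and 32 of fibroblast genes, with 0 UMIs of Fxyd2. The macrophage list therefore stood at 3017 CPM in NOD members, led by C1qa, and at 140 CPM in CD1 members. Without these 3 barcodes its log2 ratio of NOD over CD1 went from 4.43 to -1.73 (-7.10 to 0.90). The list of nuclear-retained RNA, which holds Malat1, went from -1.55 to 0.82 (0.03 to 1.55).

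The remaining lists were low. For immune and endothelial genes the limit on Ptprc and Pecam1 in the rule favours low values. T-cell genes stood at 186 CPM in NOD (5 UMIs in 4 members) and at 0 UMIs in CD1, which allows up to 19.1 CPM, and B-cell genes at 37.2 and 12.7 CPM. Plasma cell genes, led by Igha and Jchain, stood at 745 and 108 CPM against 10243 and 5416 CPM in free RNA. NK-cell genes stood at 37.2 and 25.5 CPM and endothelial genes at 37.2 and 70.1 CPM. Fibroblast genes had 0 UMIs in NOD and 32 in CD1, all in 1 barcode. Mural and erythroid genes had 0 UMIs in both, and Schwann-cell genes had 0 UMIs in NOD and 5 in CD1. A count of 0 allows up to 112 CPM in NOD, which is above free RNA for the mural list (20.6 CPM).

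Between the strains, 80 of 1377 genes with at least 20 UMIs were at least 2-fold higher in NOD members (5.81%) and 291 in CD1 members (21.1%), with a median log2 ratio of -0.29. Without the 3 barcodes with markers of other types the counts were 68 (5.59%) and 266 (21.9%) of 1217. Of the 291 genes 69 had 0 UMIs in NOD members, and with 3 UMIs in the place of 0 the count was 233 (16.9%). With a minimum of 50 UMIs 520 genes were tested, of which 23 (4.42%) and 75 (14.4%) passed. Each minimum was summed over both libraries, and CD1 members held most of the UMIs. Genes high in CD1 therefore reached it more readily, and the NOD and CD1 counts cannot be set against each other. The kallikreins outside the rule were higher in NOD by 1.14 on the log2 scale (0.95 to 1.32), with 4 of 8 genes past 2-fold and 0 the other way. That ratio was 0.38 with at least 1000 UMIs and 500 genes and turned to -2.59 with at least 4 keratin and Epcam UMIs, where 2 NOD members were left. Fxyd2 differed by -0.19 (-0.36 to -0.02) on summed UMIs and by -0.62 on the mean of barcode shares. Under 4 alternatives its ratio was above 0. The median Fxyd2 share was 0.627% of UMIs in NOD members and 1.55% in CD1 members. In NOD 157 of its 339 UMIs lay in 1 barcode.

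**Figure D5:**
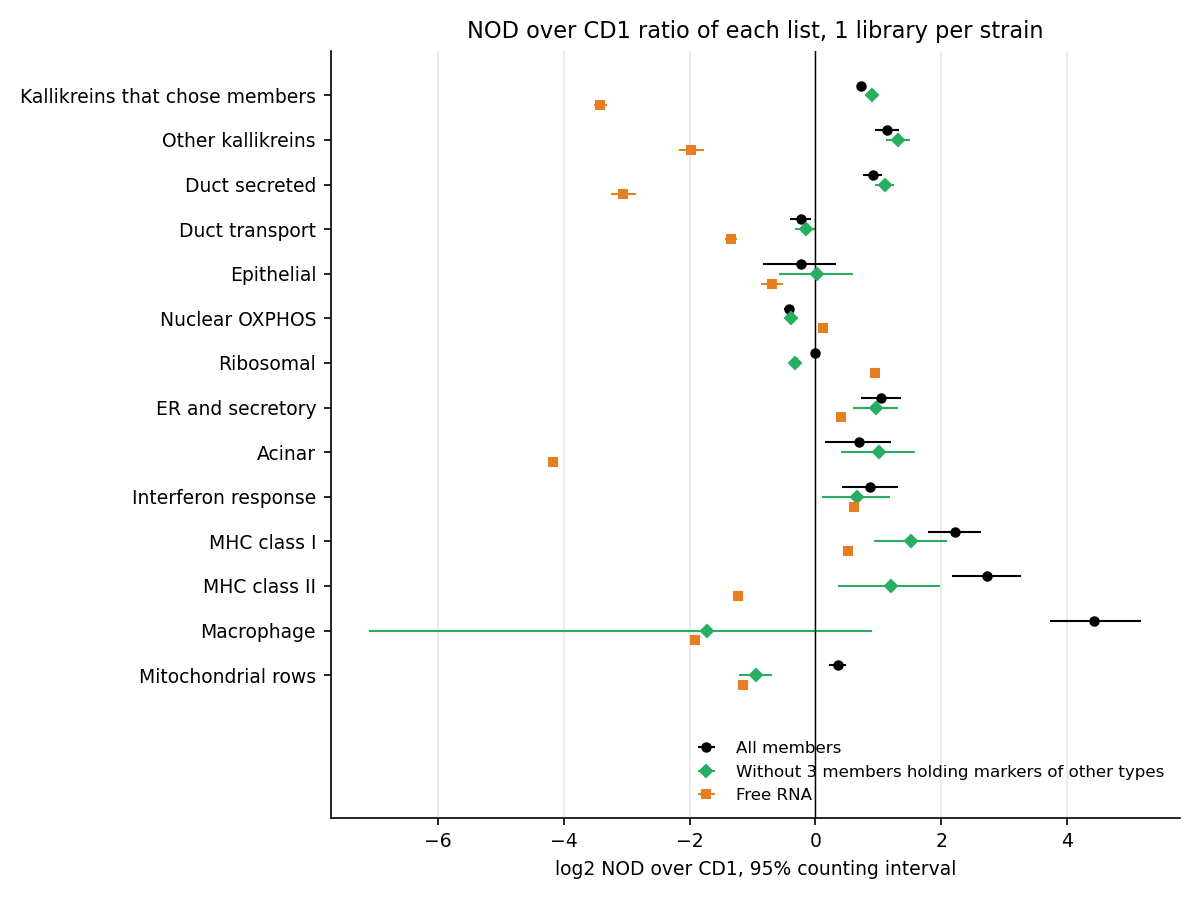
Points give the log2 ratio of NOD over CD1 for each gene list with 95% counting intervals, for all members (circles), members without the 3 barcodes with markers of other types (diamonds) and free RNA (squares). Kallikreins and duct secreted proteins lie above 0 in members and below 0 in free RNA, and the macrophage list moves across 0 when the 3 barcodes are left out.

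Genes of antigen presentation and the interferon response were measured because the NOD gland is inflamed. MHC class I genes, which carry peptides to CD8 T cells, stood at 3278 CPM in NOD members (2629 to 4038) and 707 CPM in CD1 members (582 to 851), a log2 ratio of 2.21 (1.79 to 2.63). Without the 3 barcodes it was 1.52 (0.93 to 2.08), and without the limit on Ptprc and Pecam1 it was 0.11. B2m, the shared light chain, stood at 1676 and 293 CPM and was present in 10 of 16 and 22 of 58 members. H2-D1 stood at 484 and 178 CPM and Psmb8, an immunoproteasome subunit, at 372 and 70.1 CPM. These 3 comparable genes were at least 2-fold higher in NOD, beside 5.81% of all genes, and 2 of them also without the 3 barcodes (5.59%). Free RNA held 10049 CPM of the list in NOD and 7049 CPM in CD1, so the members of both strains lay below it. Of the 3 comparable genes, 2 in NOD and 3 in CD1 were at least 2-fold lower in members than in free RNA, beside 11.3% and 4.72% of all genes. With 3 UMIs in the place of 0 the share of all genes was 6.46% in NOD.

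MHC class II genes, which are typical of professional antigen-presenting cells, stood at 2309 CPM in NOD members and 350 CPM in CD1 members, against 5234 and 12272 CPM in free RNA. The log2 ratio was 2.72 and became 1.20 without the 3 barcodes. Cd74, the invariant chain, was the most abundant, with 20 UMIs in 5 NOD members and 16 UMIs in 13 CD1 members. Ciita, the regulator of the class, had 0 UMIs in both. The macrophage markers moved with this list, and their part in it beyond the 3 barcodes was not tested.

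Interferon-response genes had a smaller ratio than MHC class I genes with all members, and the difference was not tested. The order was reversed without the limit on Ptprc and Pecam1, at 1.27 beside 0.11 for MHC class I. It was also reversed with at least 4 keratin and Epcam UMIs, at 0.76 beside -0.15. The list of 36 stood at 2123 CPM in NOD members (1608 to 2751) and 1159 CPM in CD1 members (997 to 1340), a log2 ratio of 0.87 (0.42 to 1.31), or 0.66 (0.11 to 1.19) without the 3 barcodes. The interval held 0 with at least 10 kallikrein UMIs (0.48, -0.15 to 1.06), with kallikreins at 1% of UMIs or more (0.42, -0.25 to 1.04) and with at least 4 keratin and Epcam UMIs (0.76, with a lower bound of -0.08). Free RNA differed by 0.61 between the libraries, at 2806 and 1842 CPM, and was higher than the members of its own strain in both. Ifi27 gave 22 of the 57 UMIs in NOD and 115 of the 182 in CD1, with levels of 819 and 732 CPM that were both above free RNA (111 and 116 CPM). It was the only gene of the list with enough UMIs to be compared. Cxcl9 and Cxcl10, chemokines induced by interferon, had 0 UMIs in both.

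Genes of the endoplasmic reticulum and secretory path were higher in NOD members. The list of 16 stood at 4097 CPM in NOD and 1981 CPM in CD1, a log2 ratio of 1.05, or 0.96 without the 3 barcodes. Of 5 comparable genes, 3 were at least 2-fold higher in NOD with or without them, beside 5.81% and 5.59% of all genes. Hspa5, the chaperone BiP, differed most, with 13 UMIs in 8 of 16 NOD members and 7 UMIs in 4 of 58 CD1 members (484 and 44.6 CPM, log2 ratio 3.44). Hsp90b1 stood at 335 and 146 CPM and Manf at 223 and 108 CPM. Sec61b and Ssr4, of the translocation channel, were closer, at 931 and 841 CPM and at 633 and 338 CPM.

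Nuclear OXPHOS genes stood at a log2 ratio of -0.42 on summed UMIs, beside a median of -0.29 over all tested genes. In NOD 648 of the 1852 UMIs lay in 1 barcode, without which the level was 57363 CPM, against 92440 CPM in CD1. The median share of UMIs was 5.14% in NOD members and 10.1% in CD1 members. Of 78 genes 0 were at least 2-fold higher in NOD and 10 in CD1, both smaller shares than the 5.81% and 21.1% of all genes. Slc25a4, the adenine nucleotide carrier of mitochondria, was among the 10 genes highest in CD1, at 447 CPM in NOD and 1560 CPM in CD1 (log2 ratio -1.80). Aurkaip1, a mitochondrial ribosome protein, had 0 UMIs in NOD members and 47 UMIs in 29 of 58 CD1 members. Mitochondrial rows changed direction with the 3 barcodes, from a log2 ratio of 0.35 to -0.95 without them.

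By the ranking on interval bounds, Ren1 led the genes highest in NOD members, with a log2 ratio of 6.11 (5.13 to 7.27). Fcer1g, Cd52, Tyrobp, C1qb, Cst3 and C1qa, which are typical of myeloid or other immune cells, followed, and most UMIs of each lay in 1 barcode. Tmsb4x, an actin-binding peptide, was at 2.61 with all members and at -0.18 without the 3 barcodes. Hspa5 and the predicted gene Gm30821 completed the 10. Among the genes highest in CD1, Acta2, Ecrg4, Kcnq5, Igfbp5, Myh11 and Tpm2 had all their UMIs in the CD1 member with myoepithelial markers, and Dmd had most of them there. The other 3 genes highest in CD1, Gm15772, Aurkaip1 and Slc25a4, were spread over many members.

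Signals to and from the ducts were near the limit of detection. Of 16 epithelial cytokine genes, Cxcl17, a mucosal chemokine, had 5 UMIs in 4 NOD members and 11 UMIs in 9 CD1 members, and Ccl28, which draws plasma cells to mucosa, had 2 and 3 UMIs. The list stood at 596 CPM in NOD and 204 CPM in CD1. The 15 receptors stood at 298 and 471 CPM, a log2 ratio of -0.66 that became 0.34 without the 3 barcodes. Among them Thrb, a thyroid hormone receptor, had 2 UMIs in NOD members and 13 UMIs in CD1 members. Stress genes stood at 1415 and 1573 CPM, led by Hsp90aa1 and Jund, and proliferation genes at 335 and 57.3 CPM, with Mki67 in 1 NOD member and 0 CD1 members.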

How the data were processed

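The files are raw UMI counts per gene and barcode for 2 libraries, NOD and CD1, deposited by the authors with no cell filter or scaling. The submitters' processing notes name Cell Ranger 8.0.0, Seurat 5.0.1, R 4.3.1 and the build GRCm39. The members and gene lists were chosen with earlier results of these data known. Named genes were all list genes, the 10 with most CPM, the 15 highest over free RNA and over the other barcodes, and the 10 highest in each strain among genes with at least 20 UMIs, ranked by interval bounds. The rankings over free RNA and over the other barcodes left out the genes of the rule. CPM, exact Poisson intervals, binomial intervals of ratios and Clopper-Pearson intervals at 95% were computed with Python 3.11.15, numpy 2.4.6, scipy 1.17.1 and pandas 2.3.3, and checked on simulated data. Doublets were scored with Scrublet (scanpy 1.11.5) as an alternative and kept otherwise. Shares of barcodes were thinned to 500 UMIs. The list of nuclear-retained RNA (Malat1, Neat1, Xist, Kcnq1ot1 and Meg3) was added after the counts had been seen. RefSeq and transcript sequences are of GRCm38, and their coordinates were not joined to the counts. Some genes of the named sets are not reported here.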

Additional observations from a re-analysis of the deposited data

Results flagged for a closer look

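Several lists had a NOD over CD1 ratio of opposite sign in free RNA and in members, and the difference was not tested. In free RNA the kallikreins of the rule stood at a log2 ratio of -3.42, the other kallikreins at -1.97, duct secreted proteins at -3.06 and acinar genes at -4.18, while all of these lists were above 0 in members. Macrophage genes were at -1.92, MHC class II genes at -1.23 and mitochondrial rows at -1.15 in free RNA, also above 0 in members, though the macrophage and mitochondrial ratios fell below 0 without the 3 members with markers of other types. Fibroblast genes were at 1.58, nuclear OXPHOS genes at 0.11 and nuclear-retained RNA at 0.024 in free RNA, and all of these were higher in CD1 among members. The fibroblast UMIs of the CD1 members lay in 1 barcode, and the nuclear-retained ratio of members rose to 0.82 without the 3 members. The acinar level of NOD members rested on 1 barcode, without which it was 394 CPM against 949 CPM in CD1 members.

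Barcodes outside the filter also met the keratin and kallikrein parts of the rule. In CD1 14 such barcodes had over 10% mitochondrial UMIs, and 14 had more than 100 and fewer than 500 UMIs. In NOD the numbers were 1 and 3.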

How the results depend on the processing

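The results were recomputed under 18 alternatives, of which the removal of members with markers of other types was chosen after seeing the data. So were all alternatives for Ren1, Klk1, Klk1b26 and Fxyd2, the values in the text without 1 member and those with 3 UMIs in the place of 0. The interferon ratio kept its sign under 14 alternatives (0.42 to 1.27). Ren1 kept its sign under 13, from 4.90 with at least 1000 UMIs and 500 genes to 8.89 with means of barcode shares. With at least 4 keratin and Epcam UMIs Ren1 reversed, with 0 UMIs in NOD and 9 in CD1. Log2 ratios are of NOD over CD1 unless named. With at least 4 keratin and Epcam UMIs only 2 NOD members were left: shares were 0.0407% and 0.617%, and other kallikreins (-2.59), MHC class I (-0.15), Klk1b26 (-4.48) and Fxyd2 (0.77) reversed, with duct transport over free RNA at 6.40 in NOD. Without the limit on Ptprc and Pecam1 the CD1 share was 1.78%, MHC class I 0.11, Klk1 0.086, Fxyd2 0.22, and duct transport 4.10 in NOD and 2.53 in CD1. With at least 1000 UMIs and 500 genes other kallikreins stood at 0.38 and Fxyd2 at 0.0049. At most 5% mitochondrial UMIs gave shares of 0.554% and 1.51%, other kallikreins 1.68 and CD1 duct transport 4.57, and no such limit gave 1.42, 4.20 and Fxyd2 0.038. At least 10 kallikrein UMIs gave 1.43 for other kallikreins, 1.57 for MHC class I and 5.72 and 4.52 for duct transport, and at least 1% of UMIs gave 1.56, 1.74, 5.72 and 4.53. Means of barcode shares gave 2.04 for other kallikreins, -0.62 for Fxyd2 and 5.21 and 4.55 for duct transport. Subtracting free RNA gave 3.49 for MHC class I, and leaving out members with other markers 1.52, with duct transport at 5.70 and 4.51. A minimum of 5 UMIs per gene gave 644 and 1690 of 4800 genes past 2-fold (13.4% and 35.2%), and 50 UMIs gave 23 and 75 of 520 (4.42% and 14.4%). The causes were not tested. Every strain ratio rests on few NOD barcodes and 1 library per strain, and many also rest on small numbers of NOD UMIs. No paired analysis was possible because each strain has 1 library.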

Other observations

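Gm15772 was among the genes highest in CD1 members, with 2 UMIs in NOD and 205 in CD1. Its reference transcript is 99.5% identical to that of Rpl26 over 438 bases. Of their summed UMIs, Gm15772 took 3.28% in NOD members and 71.7% in CD1 members, 6.57% and 53.9% in free RNA and 6.04% and 52.0% in the other barcodes. The sum of both genes was close between the strains, at 2272 CPM in NOD members and 1821 CPM in CD1 members, and the split between the near-identical genes is uncertain.

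By Scrublet score, the barcodes with the highest scores would include 1 NOD and 1 CD1 member. Both were rich in Klk1, with 208 of 250 Klk1-family UMIs in NOD and 468 of 479 in CD1. They held 12 of the NOD and 2 of the CD1 Crisp3 UMIs.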
